A study of Mus musculus with 8 samples.

Results

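The 9 genes described here encode Esm1 and secreted or membrane proteins of the angiopoietin, VEGF and neuropilin families, out of 18194 genes named on the array. All probe sets that the platform annotation gives to 1 of these genes alone were taken, 21 of 45101. Esm1 and Angptl4 were chosen by their signals in the FGF2+U0126, FGF2 and vehicle samples of this series, so their levels in those groups are a description, with no test. The other 7 genes, Angpt1, Angpt2, Vegfa, Vegfb, Vegfc, Nrp1 and Nrp2, were taken by family.

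The samples were total RNA labelled as mouse cerebral cortex, each on 1 of 8 Affymetrix arrays, and fell into 4 groups of 2: FGF2 with U0126, FGF2 with SB202190, FGF2 alone, and vehicle. FGF2 (fibroblast growth factor-2) is a mitogen for astrocytes, and the series' title places its effect in astroglia. U0126 inhibits MEK, the kinase that activates ERK, and SB202190 inhibits p38. Doses, times, strain, age and sex, and whether the RNA came from cultured cells or tissue are not known from the labels. Nothing says that the 2 samples of a group came from different cultures or animals, so the spread between them may be technical. A p-value rests on that spread, pooled over the 4 groups and drawn toward the trend of all genes. No group received an inhibitor without FGF2. In RNA of many cells, fewer cells of a type and less RNA per cell cannot be told apart.

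Blood vessels grow when endothelial cells receive VEGF ligands through VEGF receptors, with the neuropilins as coreceptors, and vessels are kept stable through Tek (Tie2), the receptor that angiopoietin-1 activates and that angiopoietin-2 can antagonise. In the brain, astrocytes lie against the vessel wall and are a known source of VEGF-A and angiopoietin-1. Esm1, also called endocan, is a secreted proteoglycan best known from the tip cells of sprouting endothelium, and Angptl4 is a secreted inhibitor of lipoprotein lipase that is induced by PPAR receptors and by hypoxia.

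Signals are the deposited intensities, mean ± SD over n = 2 arrays, and changes are log2 changes ± SE on the log2(value + 1.77) scale after quantile normalization. Calls were made where the adjusted p was below 0.05, over the 13174 genes above a filter on low signals. All 9 genes passed that filter, and 18 of their 21 probe sets did. Pearson's r was 0.980 to 0.984 between replicates and 0.947 to 0.981 between groups. FGF2 replicate 2 stood apart in control transcripts added in the laboratory, with a cre signal of 11087 against 8328 to 8988 on the others and a bioB signal of 312 against 187 to 249. The label of FGF2+SB202190 replicate 2 named the treatment type acclimatization, where the other 7 had another word.

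Esm1 had 1 probe set, whose signal was high in the samples that received FGF2 without U0126. It was 156 and 188 in the FGF2+U0126 samples, 2307 and 2749 in the FGF2+SB202190 samples, 2027 and 1975 in the FGF2 samples, and 104 and 117 in the vehicle samples. The 4 groups did not overlap, and both samples with U0126 lay just above the vehicle samples. The change was 4.17 ± 0.11 for FGF2 against vehicle, an 18.0-fold difference. It was -3.51 ± 0.11 for FGF2+U0126 against FGF2, 11.4-fold lower, and -3.84 ± 0.11 for FGF2+U0126 against FGF2+SB202190. FGF2+U0126 against vehicle had 0.66 ± 0.11, and FGF2+SB202190 against vehicle had 4.51 ± 0.11. The comparison of FGF2+SB202190 with FGF2 uses the FGF2 arrays, which entered the choice of the gene, so its p-value is not independent of that choice. It gave 0.33 ± 0.11, with a 95% interval of 0.09 to 0.57, and was not called (adjusted p = 0.131). That change was 0.21 without FGF2+SB202190 replicate 2, the sample with the different label, the lowest with any 1 array left out, and 0.46 was the highest. Fitted on the 4 arrays of the comparison alone it was called (adjusted p = 0.0486). Without FGF2 replicate 2 the FGF2 change was 4.21.

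The sequence before the annotated start of Esm1 is shown because this gene spans the widest range of signals of the 9. It is the RefSeq promoter of GRCm38.p6 at chr13:113209409-113209658, plus strand, 5′ to 3′, ending at the base before the start, and it overlaps the annotated gene Gm41069. Of 5 short motifs searched on both strands, AP-1 (TGANTCA), ETS (CCGGAA), hypoxia response element (ACGTG), nuclear receptor site (AGGTCA) and GC box (GGGCGG), none was found in it or in the 50 bases after the start, so it has no capitals. Only these spellings were searched, so sites with other spellings are not covered. The 32851 RefSeq promoter windows of 300 bases held these motifs in 7.81%, 14.9%, 19.6%, 16.3% and 35.7% of cases, in that order.
Esm1: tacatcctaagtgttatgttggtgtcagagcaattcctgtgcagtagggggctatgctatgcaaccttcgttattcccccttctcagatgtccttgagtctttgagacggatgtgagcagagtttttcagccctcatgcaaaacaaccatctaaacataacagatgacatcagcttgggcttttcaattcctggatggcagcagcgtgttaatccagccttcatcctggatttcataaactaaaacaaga

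Angptl4 differed from Esm1 in where its lowest signal lay. On its main probe set it had 41.5 and 38.6 in the FGF2+U0126 samples, 277.7 and 239.9 in the FGF2+SB202190 samples, 187 and 224 in the FGF2 samples, and 152 and 161 in the vehicle samples. The samples with U0126 were the lowest of all and lay below vehicle, while for Esm1 they lay above it. FGF2 against vehicle had 0.42 ± 0.14, a 1.33-fold difference, while FGF2+U0126 had -2.28 ± 0.14 against FGF2 and -1.86 ± 0.14 against vehicle, 4.85-fold and 3.64-fold lower. Against FGF2, whose arrays entered the choice of this gene too, FGF2+SB202190 had 0.32 ± 0.14, with an interval of 0.02 to 0.63. It was not called (adjusted p = 0.259), and that p-value is not independent of the choice. Without FGF2 replicate 2 the FGF2 change was 0.28. The probe set's suffix (_s_at) marks probes shared by several transcripts, and the only other probe set of Angptl4 stayed below the filter, with signals from 0.197 to 1.74. With the mean of both probe sets the FGF2+U0126 changes were -1.18 against FGF2 and -0.89 against vehicle.

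**Figure D1:**
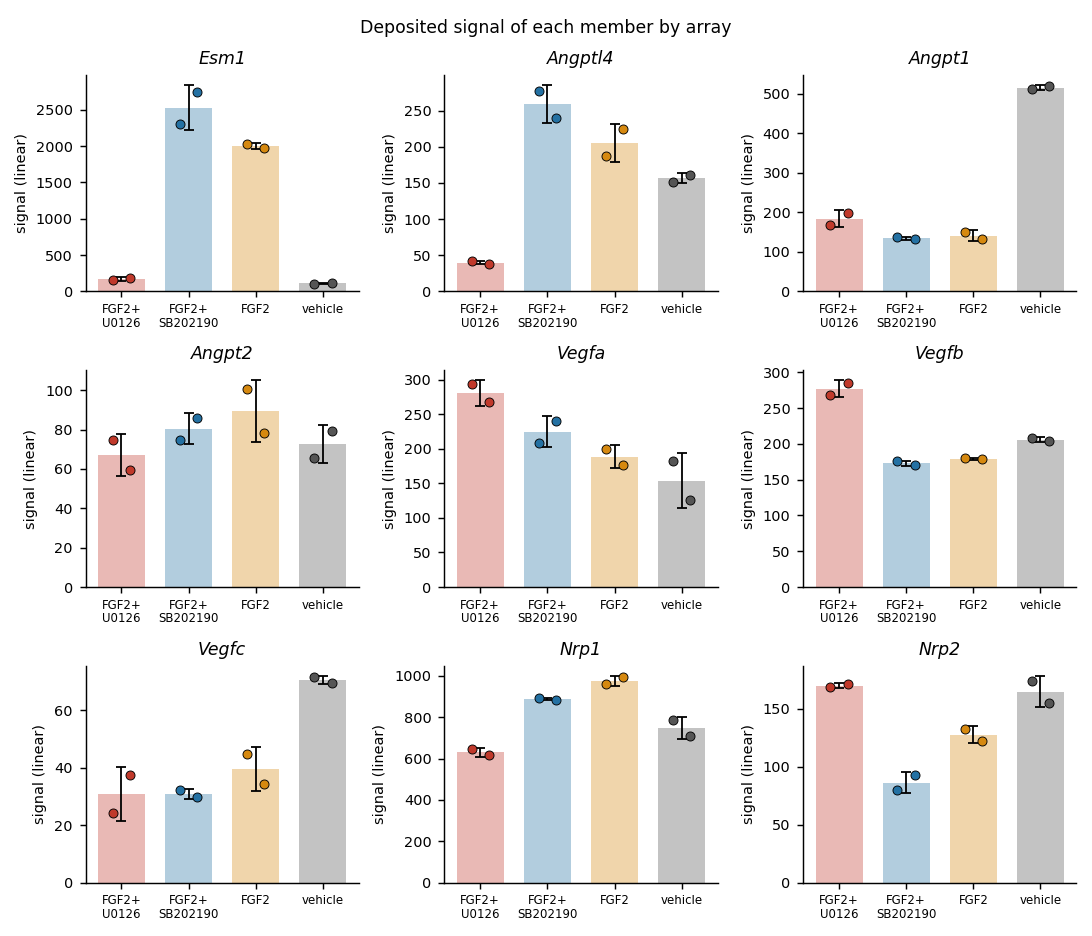
Deposited linear signal (y axis, from 0) of the probe set that represents each of the 9 genes, by group (x axis). Bars are means, points the 2 arrays and error bars the SD. Esm1 lies between 1975 and 2749 in the FGF2+SB202190 and FGF2 samples, against 104 to 188 in the FGF2+U0126 and vehicle samples, while Angpt1 stands at 511 and 521 in vehicle alone.

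Of the angiopoietins, Angpt1 fell with FGF2 and Angpt2 was not called. Angpt1, the ligand that activates Tek, had 169 and 199.7 in the FGF2+U0126 samples, 138 and 132 in the FGF2+SB202190 samples, 151 and 132 in the FGF2 samples, and 511 and 521 in the vehicle samples. All 6 samples that received FGF2 lay below both vehicle samples. The change was -1.86 ± 0.12 for FGF2 against vehicle (adjusted p = 9.26e-08), -1.50 ± 0.12 for FGF2+U0126 against vehicle and -1.92 ± 0.12 for FGF2+SB202190 against vehicle, and these 3 comparisons share the vehicle samples. The second probe set of Angpt1 fell as well, with 89.3 and 98.1 in the FGF2 samples, against 306 and 315 in the vehicle samples, a change of -1.70 ± 0.16 (adjusted p = 6.63e-06). Adding U0126 to FGF2 gave a call on the main probe set, at 0.36 ± 0.12 (adjusted p = 0.0448). The second probe set had -0.20 ± 0.16 there and was not called. The call of 0.36 was lost in 13 of 21 alternatives. With 1 array left out it ranged from 0.24 to 0.49, and it was kept in 1 of 8 cases, without FGF2+U0126 replicate 1. Against FGF2+SB202190, FGF2+U0126 was called on the main probe set, at 0.42 ± 0.12 (adjusted p = 0.0210), and not on the second, at 0.25 ± 0.16 (adjusted p = 0.333). That call was lost in 5 of 21 alternatives, among them without FGF2+U0126 replicate 2 (0.30, adjusted p = 0.166) and without FGF2+SB202190 replicate 1 or 2 (adjusted p = 0.0554 and 0.110).

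Angpt2, the ligand that can antagonise Tek, had 74.8 and 59.4 in the FGF2+U0126 samples, 74.9 and 86.1 in the FGF2+SB202190 samples, 100.4 and 78.3 in the FGF2 samples, and 65.6 and 79.4 in the vehicle samples. The FGF2 and FGF2+SB202190 samples overlapped. The changes were 0.38 ± 0.20 for FGF2 against vehicle (interval -0.04 to 0.81), -0.40 ± 0.20 for FGF2+U0126 against FGF2 and -0.14 ± 0.20 for FGF2+SB202190 against FGF2. None was called (adjusted p = 0.149, 0.168 and 0.782). Its second probe set, with signals of 0.672 to 11.7, was below the filter.

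Of the VEGF ligands, Vegfa and Vegfb rose when U0126 was added to FGF2. Vegfa, the main ligand of the VEGF receptor Kdr, had 294 and 267 in the FGF2+U0126 samples, 209 and 241 in the FGF2+SB202190 samples, 201 and 177 in the FGF2 samples, and 182 and 125.7 in the vehicle samples. The samples with U0126 were the highest and the vehicle samples were far apart from each other. Against FGF2 alone, FGF2+U0126 was higher by 0.55 ± 0.15 (adjusted p = 0.0206), and against vehicle it was 0.90 ± 0.15 (adjusted p = 0.000581). The first call was lost in 5 of 21 alternatives. These were without the intensity trend, with the mean of both probe sets, without FGF2 replicate 2 (0.47) and without either FGF2+U0126 array (0.48 and 0.62). FGF2 against vehicle was not called on this probe set, at 0.35 ± 0.15 (adjusted p = 0.0941). It moved with the vehicle arrays and was 0.60 and called without vehicle replicate 1 (adjusted p = 0.00804) and 0.092 without vehicle replicate 2 (adjusted p = 0.676). It was also called with arrays centred on the median of all probe sets (0.51) and with the mean of both probe sets (1.04). FGF2+SB202190 against vehicle was called, at 0.59 ± 0.15 (adjusted p = 0.00814), and was not called without FGF2+SB202190 replicate 2 or vehicle replicate 2 (adjusted p = 0.0788 and 0.1).

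The second probe set of Vegfa gave a larger FGF2 change. It had 169 and 149 in the FGF2+U0126 samples, 85.9 and 90.2 in the FGF2+SB202190 samples, 118 and 98.3 in the FGF2 samples, and 59.1 and 19.7 in the vehicle samples. FGF2 against vehicle was 1.73 ± 0.35 (adjusted p = 0.00250) in the fit over all 27061 probe sets above the filter, where 30.5% were called. As on the first probe set, vehicle replicate 2 was the lowest array. U0126 added to FGF2 gave 0.53 ± 0.35 on it, beside 0.55 on the first probe set, and was not called (adjusted p = 0.357).

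Vegfb, a VEGF ligand that binds Flt1 and not Kdr, had 269 and 285 in the FGF2+U0126 samples, 175 and 170.5 in the FGF2+SB202190 samples, 181 and 178 in the FGF2 samples, and 209 and 203 in the vehicle samples. Replicates lay close together, and the samples with U0126 were above all 6 others. FGF2+U0126 rose by 0.60 ± 0.10 against FGF2 (adjusted p = 0.00108), by 0.66 ± 0.10 against FGF2+SB202190 (adjusted p = 0.000513) and by 0.42 ± 0.10 against vehicle (adjusted p = 0.00648). All 3 calls held in each of the 21 alternatives. FGF2 against vehicle was not called, at -0.17 ± 0.10 (adjusted p = 0.210). Its value was 0.00072 with each array centred on the median of all probe sets.

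Vegfc, the ligand of the lymphatic receptor Flt4, had low signals. Its brightest probe set had 24.1 and 37.5 in the FGF2+U0126 samples, 32.2 and 29.7 in the FGF2+SB202190 samples, 45.0 and 34.2 in the FGF2 samples, and 71.6 and 69.7 in the vehicle samples. All 6 samples that received FGF2 were lower than vehicle. FGF2+U0126 and FGF2+SB202190 were called against vehicle, at -1.09 ± 0.28 and -1.05 ± 0.28 (adjusted p = 0.00977 and 0.0105), and FGF2 alone was not, at -0.72 ± 0.28 (adjusted p = 0.0612). FGF2 alone was called in 6 of 20 alternatives, among them without FGF2+U0126 replicate 1 or 2 (adjusted p = 0.0373 and 0.0435), and it was called different from neither group with an inhibitor (adjusted p = 0.396 for FGF2+U0126 and 0.612 for FGF2+SB202190). FGF2+U0126 was not called without its replicate 1 (adjusted p = 0.0922), and without vehicle replicate 1 it stood at the threshold, on the side not called. FGF2+SB202190 was not called without its replicate 2 or without vehicle replicate 1 or 2 (adjusted p = 0.0587, 0.0513 and 0.0501). This probe set's suffix (_x_at) marks probes that may bind other transcripts. The other 2 probe sets of Vegfc were called in none of the 6 comparisons and had FGF2 changes of 0.09 ± 0.29 and -0.22 ± 0.36.

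The promoters of Vegfa and Vegfb are shown because both genes rose with U0126 where Esm1 was lower. They are RefSeq promoters of GRCm38.p6 on the minus strand, at chr17:46032378-46032627 and chr19:6987652-6987901, 5′ to 3′, each ending at the base before the start. Capitals mark GC boxes (GGGCGG or its reverse complement) in both and nuclear receptor sites (AGGTCA) in Vegfb. Vegfa held 2 GC boxes, and Vegfb held 4 with 2 nuclear receptor sites. The table matched 6 of the 9 genes, with 7 windows, and Angptl4, Angpt1 and Angpt2 were not among them. Neither AP-1 nor ETS letters were found in any of the 7, and a hypoxia response element was found in 1, at a second start of Vegfa. That start also held 1 GC box. GC boxes were found for Vegfc (2), Nrp1 (1) and Nrp2 (5) too. Nrp1, which was lower with U0126, also held 1 nuclear receptor site. The shown sequences were 44% G or C for Esm1, 59.2% for Vegfa and 76.4% for Vegfb.
Vegfa: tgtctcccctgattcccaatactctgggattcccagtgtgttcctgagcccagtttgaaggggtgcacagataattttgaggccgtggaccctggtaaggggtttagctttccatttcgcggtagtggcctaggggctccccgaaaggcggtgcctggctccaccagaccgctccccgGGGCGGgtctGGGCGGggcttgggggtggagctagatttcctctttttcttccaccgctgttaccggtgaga
Vegfb: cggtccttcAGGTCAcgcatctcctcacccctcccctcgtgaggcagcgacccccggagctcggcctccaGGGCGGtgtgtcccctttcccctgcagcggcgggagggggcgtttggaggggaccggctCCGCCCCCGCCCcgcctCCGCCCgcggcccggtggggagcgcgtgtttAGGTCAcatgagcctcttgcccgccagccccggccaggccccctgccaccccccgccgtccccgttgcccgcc

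The 2 neuropilins, coreceptors for VEGF and class 3 semaphorins, moved in different ways. Nrp1 had 646 and 615 in the FGF2+U0126 samples, 893 and 883 in the FGF2+SB202190 samples, 959 and 993 in the FGF2 samples, and 787 and 711 in the vehicle samples. The 4 groups did not overlap, and the samples with U0126 lay below vehicle. Nrp1 rose by 0.35 ± 0.07 with FGF2 against vehicle (adjusted p = 0.00178). It fell with FGF2+U0126, at -0.64 ± 0.07 against FGF2 (adjusted p = 4.43e-05), -0.50 ± 0.07 against FGF2+SB202190 (adjusted p = 0.000253) and -0.29 ± 0.07 against vehicle (adjusted p = 0.00773). The first 2 of these 3 calls held in all 21 alternatives, while the last was lost in 4. These were without FGF2+U0126 replicate 2 (-0.25), without vehicle replicate 1 (-0.21), without the intensity trend, and with arrays centred on the median of all probe sets (-0.039). FGF2+SB202190 against FGF2 was not called, at -0.13 ± 0.07, with an interval of -0.29 to 0.02 (adjusted p = 0.373). Against vehicle FGF2+SB202190 was called, at 0.21 ± 0.07 (adjusted p = 0.0331), and that call was lost in 8 of 21 alternatives. Among these were leaving out either FGF2 array, either FGF2+SB202190 array or vehicle replicate 2, where the value was 0.14 (adjusted p = 0.247).

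The other probe sets of Nrp1 repeated its pattern in 2 of 3 cases. One had 281 and 244 in the FGF2+U0126 samples, 452 and 475 in the FGF2+SB202190 samples, 461 and 471 in the FGF2 samples, and 379.7 and 349 in the vehicle samples. U0126 added to FGF2 gave -0.84 ± 0.09 there (adjusted p = 9.27e-05) and -0.78 ± 0.12 on the next (adjusted p = 0.000666), with FGF2 against vehicle at 0.35 ± 0.09 and 0.46 ± 0.12 (adjusted p = 0.0135 and 0.00913). The last, with signals of 14.6 to 39.8, was called in none of the 6 comparisons. With the mean of all 4 probe sets the FGF2 change of Nrp1 was 0.31 and was not called (adjusted p = 0.0828).

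Nrp2 was lowest with SB202190. It had 169 and 172 in the FGF2+U0126 samples, 79.7 and 92.7 in the FGF2+SB202190 samples, 133 and 123 in the FGF2 samples, and 175 and 155 in the vehicle samples. The FGF2+U0126 samples fell within the range of vehicle, and the FGF2+SB202190 samples lay below all others. FGF2+SB202190 was -0.55 ± 0.13 against FGF2 (adjusted p = 0.0441) and -0.88 ± 0.13 against vehicle (adjusted p = 0.000170). The first of these calls was lost in 14 of 21 alternatives, with any 1 of the 8 arrays left out among them. The second was lost in 1, the mean of all 4 probe sets (-0.59, adjusted p = 0.0791), and on the second probe set it was -0.27 ± 0.16 and not called (adjusted p = 0.244). FGF2+U0126 against FGF2+SB202190, the comparison of the inhibitors with each other, was 0.94 ± 0.13 (adjusted p = 0.000227). It was called on the second probe set too, at 0.72 ± 0.16 (adjusted p = 0.00892), and not on the third, at 0.47 ± 0.17 (adjusted p = 0.0729). With the mean of all 4 probe sets, of which 1 lay below the filter with signals of 0.528 to 17.9, it was 0.45 and was not called (adjusted p = 0.233). The difference of FGF2+U0126 from FGF2 was 0.39 ± 0.13 and missed the threshold (adjusted p = 0.0502). It was called in 8 alternatives.

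**Figure D2:**
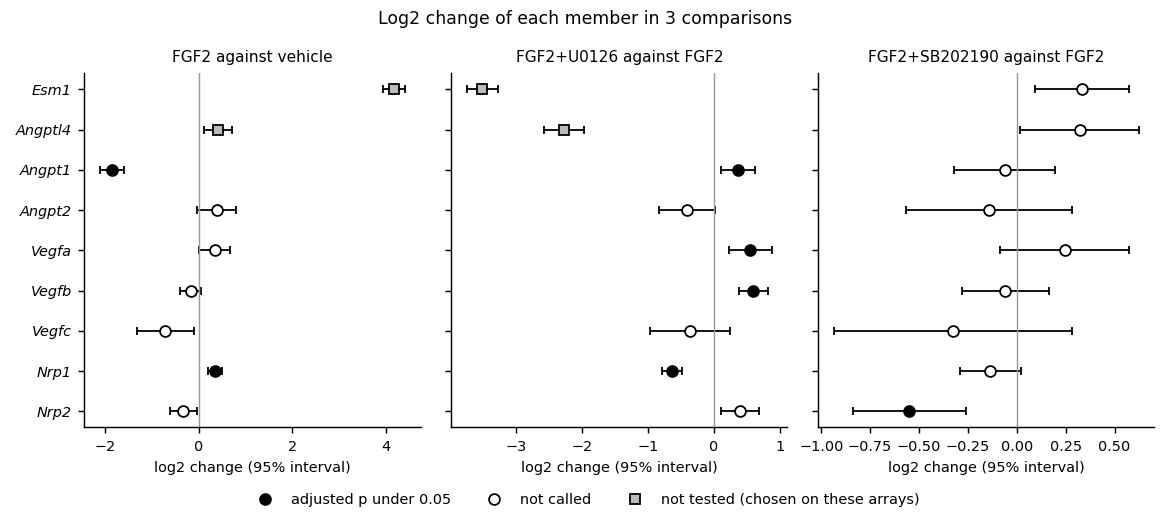
Log2 change (x axis, with 95% interval) of the 9 genes (y axis) in 3 comparisons. Filled circles are called, open circles are not, and grey squares mark Esm1 and Angptl4 where they were not tested. Nrp1 and Angpt1 change in opposite directions with FGF2, at 0.35 and -1.86, and Vegfb and Nrp1 with U0126, at 0.60 and -0.64.

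Counted over the 7 genes taken by family, 1 rose (Nrp1) and 1 fell (Angpt1) with FGF2 against vehicle, 2 of 7, where 37.9% of all genes tested were called, 18.9% higher and 19% lower. After quantile normalization the samples of the 2 groups did not overlap for 7 of 7, beside 68.4% of all genes. In the deposited signals Angpt2 and Vegfa overlapped, which left 5 of 7, and in the other 5 comparisons the counts of genes without overlap were equal on both scales. With arrays centred on the median of all probe sets the median change of all genes was 0.16, and 4018 genes were called higher and 1479 lower, against 2489 and 2502. Adding U0126 to FGF2 called 4 of 7, Angpt1, Vegfa and Vegfb higher and Nrp1 lower, beside 22.1% of all genes, 11.6% higher and 10.5% lower, and 6 of 7 did not overlap, beside 61.1%. Without FGF2 replicate 2, the array with the high control transcripts, 2 of these 4 were called, Vegfb and Nrp1, and without FGF2+U0126 replicate 2 the count was also 2. For FGF2+SB202190 against FGF2, where Esm1 and Angptl4, chosen partly on the FGF2 arrays, are counted too, 1 of all 9 genes was called, Nrp2, beside 3.02% of all genes, 1.32% higher and 1.7% lower, and 7 of 9 did not overlap, beside 48.9%. That count was 0 in limma with any 1 array left out, where 2 to 3 of the 9 had an unadjusted p below 0.05.

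The inhibitors set against each other, FGF2+U0126 against FGF2+SB202190, called 4 of 7, Angpt1, Vegfb and Nrp2 higher and Nrp1 lower, beside 22.7% of all genes, 12.4% higher and 10.3% lower, and 6 of 7 did not overlap, beside 59.9%. Against vehicle, FGF2+U0126 called 5 of 7, beside 31.7%, with Vegfa and Vegfb higher, beside 16.7%, and Angpt1, Vegfc and Nrp1 lower, beside 15%. FGF2+SB202190 called 5 of 7 against vehicle, beside 35.8%, with Vegfa and Nrp1 higher, beside 18%, and Angpt1, Vegfc and Nrp2 lower, beside 17.8%. The samples did not overlap for 5 of 7 and 6 of 7 in these comparisons, beside 63.8% and 67.2%. Without vehicle replicate 1 the FGF2+U0126 count was 3, and without FGF2+SB202190 replicate 2 or vehicle replicate 2 the FGF2+SB202190 count was 2.

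Most genes had further probe sets, and the fit over all 27061 probe sets gave them values of their own. That fit called 30.5% of probe sets for FGF2 against vehicle, 16.3% for FGF2+U0126 against FGF2, 1.91% for FGF2+SB202190 against FGF2, 16.7% for FGF2+U0126 against FGF2+SB202190, 24.7% for FGF2+U0126 against vehicle and 28.9% for FGF2+SB202190 against vehicle. In it the main probe sets of Angpt1 with U0126 and of Nrp2 with SB202190 were not called against FGF2 (adjusted p = 0.0604 and 0.0597).

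**Figure D3:**
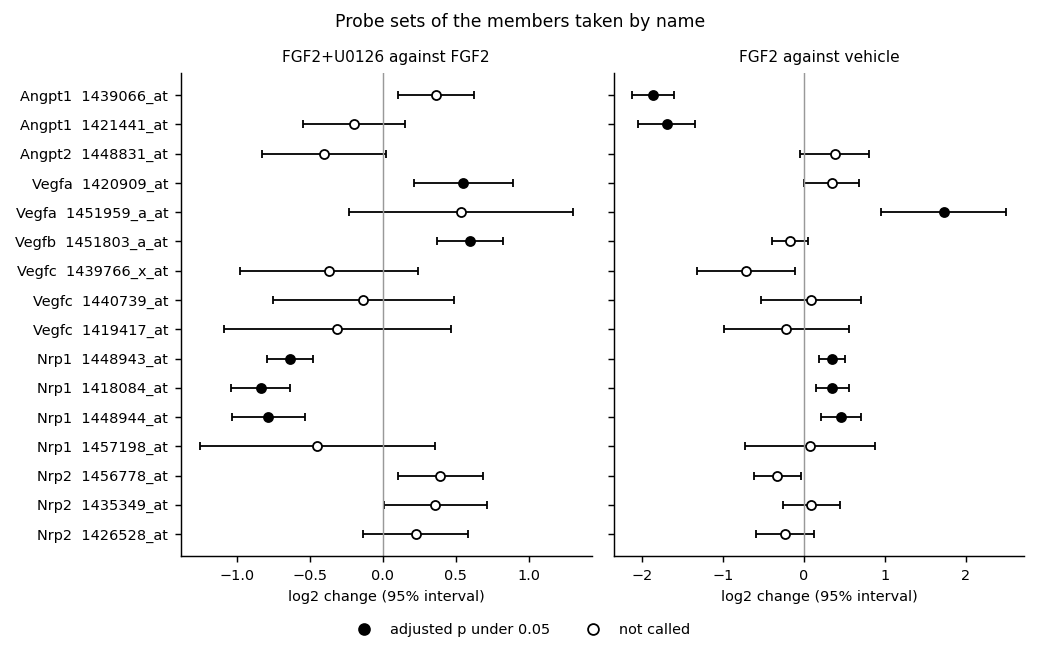
Log2 change (x axis, with 95% interval) of the 16 probe sets above the filter that belong to the 7 genes taken by family (y axis), for FGF2+U0126 against FGF2 and FGF2 against vehicle, from the fit over all probe sets. Filled circles are called and open circles are not. The 3 brighter probe sets of Nrp1 lie between -0.84 and -0.64 with U0126, and the 2 probe sets of Vegfa give 0.35 and 1.73 with FGF2.

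A list of VEGF and angiopoietin receptors and other ligands had 12 measured genes. It also held genes outside these families, Lpl, Pdgfra, Pdgfrb, Eng, Acvrl1 and Ephb4. With FGF2, 3 of the 12 fell and 0 rose, beside 19% of all genes lower, not far from the list's own share. Flt1, Flt4, Pgf, Vegfd and Angpt4 were called neither with FGF2 nor with U0126 against FGF2. Lipoprotein lipase, Lpl, the enzyme that Angptl4 inhibits, averaged 162.5 in FGF2 samples and 405 in vehicle samples, a change of -1.30 ± 0.12 (adjusted p = 1.75e-06). Kdr averaged 25.0 in FGF2 samples and 91.9 in vehicle samples, a change of -1.72 ± 0.34 (adjusted p = 0.00133), and the PDGF receptor Pdgfrb had -0.42 ± 0.10. With U0126 added to FGF2, Lpl rose by 0.44 ± 0.12 (adjusted p = 0.0158), and Pdgfra, the other PDGF receptor, had -0.93 ± 0.16. SB202190 called 0 of the 12 in limma, beside 3.02% of all genes, with 2 at an unadjusted p below 0.05. The list's median was -0.19, beside 0.00 for all genes. Tek, the angiopoietin receptor, and Tie1 were below the filter. Of the other angiopoietin-like genes only Angptl6 was above the filter, and it rose by 1.19 ± 0.15 with FGF2 and by 0.91 ± 0.15 with U0126 against FGF2.

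Ligands and partners of the neuropilins moved both ways. Of 15 measured, 2 rose and 3 fell with FGF2, beside 18.9% of all genes higher and 19% lower, shares near the list's own. With FGF2+U0126 against FGF2 1 rose and 5 fell, beside 11.6% and 10.5% of all genes. Sema3a, a repellent ligand of Nrp1, averaged 162 in FGF2 samples and 68.7 in vehicle samples, a rise of 1.30 ± 0.15 (adjusted p = 1.33e-05). With FGF2+U0126 it had -0.92 ± 0.15 against FGF2 (adjusted p = 0.000619). Sema3c and the plexin Plxnb1 had -0.71 ± 0.07 and -0.89 ± 0.11 with FGF2. Against FGF2, U0126 gave -0.94 ± 0.14 for Sema3e and 0.92 ± 0.15 for Sema3b. SB202190 called 1 gene of the 15, Sema3c, at -0.31 ± 0.07 (adjusted p = 0.0251), beside 3.02% of all genes.

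Of 29 other secreted regulators of angiogenesis, 8 rose and 14 fell with FGF2, beside 18.9% and 19% of all genes, with a median of -0.29 beside 0.00. With FGF2+U0126 against FGF2 4 rose and 11 fell, beside 11.6% and 10.5% of all genes. The EGF receptor ligand Hbegf rose by 1.81 ± 0.05 with FGF2 (adjusted p = 6.03e-11) and had -0.59 ± 0.05 with U0126. The cytokine Lif rose by 2.41 ± 0.22 and the chemokine Cxcl12 had -1.33 ± 0.11 with FGF2. The transcript of Fgf2 itself averaged 49.5 in FGF2+U0126 samples and 157 in FGF2 samples, a change of -1.61 ± 0.19 (adjusted p = 6.63e-05), and Fgf1 had -0.85 ± 0.13. SB202190 called 1 of the 29, the protease inhibitor Timp3, at -0.65 ± 0.07 (adjusted p = 0.000256), beside 3.02% of all genes.

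PPAR receptors and hypoxia-inducible factors are known for driving Angptl4 or Vegfa in other settings. Lists of these regulators and, for the most part, of their targets were read in the same way. Of 13 PPAR receptors and targets, 8 fell and 0 rose with FGF2, beside 19% of all genes lower, with a median of -0.51. They included Acot1, an acyl-CoA thioesterase, at -1.65 ± 0.09, Acaa2, an enzyme of fatty acid oxidation, at -0.92 ± 0.09 and Cpt1a, which carries fatty acids into mitochondria, at -0.72 ± 0.09. With U0126 2 of the 13 rose, Acot1 by 0.41 ± 0.09 and Creb3l3 by 1.38 ± 0.45, and 1 fell, Pdk4, at -0.61 ± 0.11, near the shares of 11.6% higher and 10.5% lower over all genes. SB202190 called 0 of the 13 in limma, beside 3.02% of all genes, with 3 at an unadjusted p below 0.05 and a median of 0.08. Of 21 targets and subunits of the hypoxia-inducible factors, 5 rose and 9 fell with FGF2, beside 18.9% and 19% of all genes. With U0126 7 rose and 1 fell, beside 11.6% of all genes higher and 10.5% lower, and the median was 0.09, beside 0.03. The glucose transporter Slc2a1 averaged 1491 in FGF2+U0126 samples and 645.5 in FGF2 samples, a rise of 1.22 ± 0.07 (adjusted p = 2.02e-07). The glycolytic regulator Pfkfb3 rose by 1.44 ± 0.10 and Ndrg1 by 0.89 ± 0.05, and the gene that fell, Ldha, which makes lactate and was named after its value was seen, had -0.56 ± 0.07. With SB202190 Ndrg1 rose by 0.34 ± 0.05 (adjusted p = 0.00418), the 1 call among the 21, beside 3.02% of all genes.

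Esm1 and Angptl4 correlated with each other at r = 0.667 over the 8 arrays, which share their groups. Over the 2178 other genes whose group means spanned at least 1 log2, the 5 most like Esm1 were Prkg2 (r = 0.995), a cGMP-dependent kinase, Clic1 (r = 0.994), a chloride intracellular channel protein, Socs5 (r = 0.994), a suppressor of cytokine signalling, Ermp1 (r = 0.991), a metallopeptidase of the endoplasmic reticulum, and Serpinb2 (r = 0.990), a plasminogen activator inhibitor. Prkg2 averaged 43.8 in FGF2+U0126 samples, 219.8 in FGF2+SB202190 samples, 209 in FGF2 samples and 40.3 in vehicle samples. Serpinb2 averaged 25.8 in FGF2+U0126 samples, 389.9 in FGF2+SB202190 samples, 247 in FGF2 samples and 28.4 in vehicle samples. For Angptl4 the 5 were Fbxo9 (r = 0.982), an F-box protein, A630072M18Rik (r = 0.972), Zfp697 (r = 0.971), a zinc finger protein, Egr1 (r = 0.968), an early transcription factor, and Gfra1 (r = 0.968), the GDNF receptor. Egr1 averaged 203 in FGF2+U0126 samples, 776 in FGF2+SB202190 samples, 529.7 in FGF2 samples and 538 in vehicle samples. As for Angptl4, its samples with U0126 lay below vehicle.

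**Figure D4:**
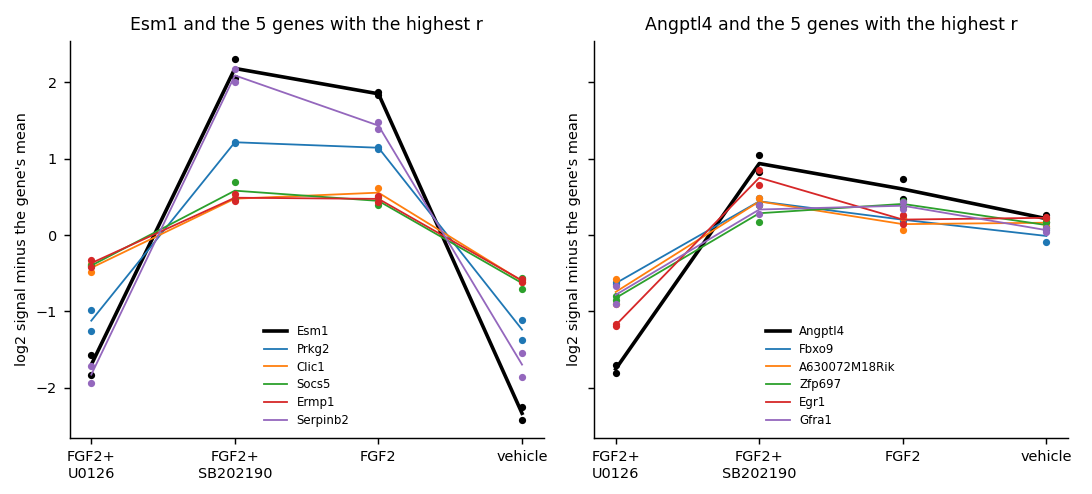
Log2 signal minus each gene's mean over the 8 arrays (y axis) by group (x axis) for Esm1 and Angptl4, in black, and the 5 genes with the highest Pearson r to each. Points are arrays, and lines join group means and stand for no order of the groups. The vehicle samples of Esm1 and its 5 genes lie near the FGF2+U0126 samples, and those of Angptl4 and its 5 genes lie near the FGF2 samples.

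Esm1 is best known from endothelial cells, so markers of cell types were read beside it, and which cells gave its signal here was not tested. All 14 astrocyte markers were above the filter, with summed signals of 25670 to 26390 in FGF2+U0126 samples, 21610 to 21890 in FGF2+SB202190 samples, 22480 to 23510 in FGF2 samples and 34950 to 35370 in vehicle samples. With FGF2 against vehicle 14 of 14 were called lower, beside 19% of all genes. With FGF2+U0126 against FGF2 9 of the 14 were called higher and 0 lower, beside 11.6% and 10.5% of all genes. Of 19 endothelial markers 9 were above the filter. The summed signals of all 19 were 1218 to 1323 in FGF2+U0126 samples, 766 to 790.1 in FGF2+SB202190 samples, 932 to 998 in FGF2 samples and 1963 to 2080 in vehicle samples. Without Slco1a4, the largest single part, the other 18 summed to 396.6 to 433.9 in FGF2+U0126 samples, 460.1 to 478.7 in FGF2+SB202190 samples, 532.6 to 538 in FGF2 samples and 413.9 to 430.7 in vehicle samples. Plvap and Esam, given below, were part of that sum and were higher in FGF2 than in vehicle samples. Kdr, also part of it, went the other way, with 20.0 to 30.1 in FGF2 samples and 86.7 to 97.1 in vehicle samples. Pecam1, a marker that defines endothelium, had signals of 0.605 to 1.56 on every array, and Tek, Tie1, Cldn5 and Emcn were below the filter. Slco1a4 itself had 820.9 to 889.5 in FGF2+U0126 samples, 306.1 to 311.5 in FGF2+SB202190 samples, 399.5 to 460.3 in FGF2 samples and 1532 to 1666 in vehicle samples. Of the 9 endothelial markers above the filter, 2 were called higher and 2 lower with FGF2 against vehicle, beside 18.9% and 19% of all genes. With FGF2+U0126 against FGF2 1 was called higher and 3 lower, beside 11.6% and 10.5%. Plvap, an endothelial diaphragm protein, and Esam, an endothelial adhesion molecule, were called higher with FGF2 against vehicle, at 1.58 and 1.84, and lower with FGF2+U0126 against FGF2, at -0.88 and -0.98. Plvap had 71.6 to 94.2 in FGF2+U0126 samples, 110.4 to 148 in FGF2+SB202190 samples, 136 to 172 in FGF2 samples and 48.5 to 59.5 in vehicle samples. Esam had 47.3 to 50.7, 69.3 to 94.9, 92.1 to 108 and 28.0 to 32.2 in the same order of groups. Pericyte, microglia, neuron and oligodendrocyte markers were above the filter in 4 of 8, 5 of 12, 5 of 10 and 4 of 7 cases. With FGF2 against vehicle, 0, 0, 2 and 0 of these were called higher, beside 18.9% of all genes. In the same order 2, 0, 1 and 2 were called lower, beside 19%. The 8 pericyte markers summed to 579.8 to 589.2 in FGF2+U0126 samples and 612.1 to 652.1 in FGF2+SB202190 samples. Their sums were 604.5 to 662.3 in FGF2 samples and 821 to 889.6 in vehicle samples. The part of these cells in the changes of the 9 genes was not tested.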

How the data were processed

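Total RNA of 8 samples in 4 groups of 2 was measured on Affymetrix arrays. The deposited values are intensity signals per probe set on a linear scale. Which summary algorithm made them is not given in the sources used here. Every array has a mean of 150.001 after trimming 2% at each end. The arrays' number limits the precision. Of 45101 probe sets 34958 carried 1 gene symbol, 932 several and 9211 none. Values were taken to log2(value + 1.77), the 10th percentile, quantile normalized, and filtered at the 40th percentile, a log2 value of 3.83. The brightest probe set represented a gene. limma (version 3.58.1, R 4.3.3; 4 residual and 8.99 prior degrees of freedom) fitted all 8 arrays with an intensity trend, two-sided, with Benjamini-Hochberg adjustment over all genes in each of 6 comparisons, and was tested on simulated data. The members, lists and tests were chosen with earlier results of these data known. Named genes were the 9 members, the 5 most like Esm1 and Angptl4, and up to 3 called genes with the smallest p per list, with exceptions marked. For Esm1 and Angptl4 only FGF2+SB202190 against FGF2 was tested, a narrower choice than first planned, which also had FGF2+SB202190 against vehicle. That test shares the FGF2 arrays, which entered the choice of both genes. A planned comparison of protein sequences was not made. Same-numbered replicates did not deviate together (correlations from -0.0258 to 0.0337), so the numbers were not used as pairs. Of 21 alternative settings, 20 changed the normalization, pseudocount, filter, variance model, probe set rule, block and arrays, and 1, centring on the genes above the filter, was chosen after seeing the data. Figures were drawn with Python 3.11.15.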

Additional observations from a re-analysis of the deposited data

How the results depend on the processing

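Groups of 2 arrays limit the precision, and low signals such as those of Vegfc limit what can be measured. Of 1128 recomputed log2 changes 1012 kept their direction and side of the threshold, 62 lost a call, 18 gained one, 24 untested values moved by over 1 SD and 12 uncalled values changed sign. Counts of called genes among the 7 (9 for FGF2+SB202190 against FGF2) moved as follows, and the cause was not tested. FGF2+U0126 against FGF2 had 4, and 2 without the intensity trend or when probe sets of a gene were averaged. FGF2+SB202190 against FGF2 had 1, and 0 with arrays centred on the median of all probe sets, without the filter, without the trend, with the probe set mean and with the replicate block, in limma, where 1 to 3 of the 9 had an unadjusted p below 0.05. FGF2+U0126 against FGF2+SB202190 had 4, and 2 with the probe set mean. FGF2+SB202190 against vehicle had 5, 3 without the trend and 2 with the probe set mean. With 1 array left out the counts ranged from 2 to 3 for FGF2 against vehicle, 2 to 4, 0 to 0 and 3 to 4 for the 3 comparisons above in that order, 3 to 5 for FGF2+U0126 against vehicle and 2 to 5 for FGF2+SB202190 against vehicle.

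The replicate block ended 2 calls, Angpt1 in FGF2+U0126 against FGF2 (0.36, adjusted p = 0.0541) and Nrp2 in FGF2+SB202190 against FGF2 (-0.55, adjusted p = 0.0534), and changed no other call of the 9 genes. Centring on the median of all probe sets moved the median FGF2 change of all genes to 0.16 and made 4018 genes higher and 1479 lower, against 2489 and 2502. With it Vegfa was called with FGF2 (0.51), Vegfb had 0.00072 there and Angpt2 had 0.0963 in FGF2+U0126 against vehicle. With the probe set mean Vegfa had -0.015 in FGF2+SB202190 against FGF2, and Angpt2 and Nrp2 had 0.44 and -0.15 in FGF2+U0126 against vehicle. Among settings without 1 array, Angpt1 ranged from -0.16 to 0.033 and Angpt2 from -0.30 to 0.020 in FGF2+SB202190 against FGF2, Vegfc from -0.38 to 0.29 in FGF2+U0126 against FGF2+SB202190, and Angpt2 from -0.18 to 0.14 and Nrp2 from -0.0074 to 0.13 in FGF2+U0126 against vehicle. Over all genes, calls for FGF2+U0126 against FGF2 were 2916, and 1619 without the trend, 1782 with the probe set mean, and 1851 and 1786 without FGF2 replicate 1 or 2. For FGF2+SB202190 against FGF2 they were 398, and 0 in limma without the trend, where 1819 had an unadjusted p below 0.05, 170 with the probe set mean, 235 with centring on all probe sets, and 81 to 101 without replicate 1 or 2 of FGF2 or replicate 2 of FGF2+SB202190. The comparison of the inhibitors had 2986, against 1735, 1783 and 1810 without the trend, with the probe set mean and without FGF2+SB202190 replicate 2. Vegfc fell below the filter at the 60th percentile and has no value there.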
